A study of Homo sapiens with 12 samples.

Results

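The Notch receptors NOTCH1, NOTCH2 and NOTCH3, the ligands JAG1 and JAG2, the DNA-binding factor RBPJ and the target genes HES1, HEY1, HEY2 and HEYL were followed across the 4 groups of the experiment. These 10 genes were taken by name from the 60671 genes of the count table. Poly(A) RNA came from BJ-5ta cells, a line of human foreskin fibroblasts immortalized with hTERT. Wild-type cells and 1 CRISPR/Cas9 ΔLEO1 clone, with a deletion between exons 1 and 2 of LEO1, were grown in medium with 10% serum (WT_10 and Leo1_10) or kept for 10 days in 0.1% serum (WT_01 and Leo1_01). Each group held 3 libraries, numbered 1 to 3 (WT_10), 4 to 6 (Leo1_10), 7 to 9 (WT_01) and 10 to 12 (Leo1_01), and ERCC spike-in RNA was added to every sample. All ΔLEO1 libraries came from the same clone, and neither the labels nor the paper say whether the libraries of a group were separate cultures, so p-values measure the spread between these libraries, which may be technical.

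Notch receptors are membrane proteins that are cut when a ligand such as a Jagged protein on a neighbouring cell binds them. The freed intracellular domain enters the nucleus, joins RBPJ on DNA and turns on HES and HEY genes, which encode transcriptional repressors. In cultured fibroblasts HES1 is known to protect quiescent cells from senescence. RNA-seq measures the transcripts of these genes and not the cleaved receptor.

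The gene counts of a library summed to 26240632 to 45315560 and its ERCC counts to 244023 to 1090393. LEO1 had 682 to 1001 counts in the wild-type libraries and 23 to 55 in the ΔLEO1 libraries, and its log2 fold change against wild-type was −4.02 in 10% serum and −4.32 in 0.1% serum. Fibroblast markers such as COL1A1 and VIM were abundant in every library, while the 4 endothelial markers summed to 0.400 to 5.52 CPM, the 4 epithelial to 0.209 to 1.51, the 4 leukocyte to 0.995 to 8.24 and the 3 melanocyte markers to 0.227 to 0.823 (CPM are counts per 1000000 gene counts). CDH5, CD3E, MS4A1, MLANA and TYR were at or near 0. The endothelial gene TEK had 57 to 160 counts in wild-type and 0 to 5 in ΔLEO1 libraries, the leukocyte gene PTPRC 8 to 21 and 61 to 269, and the leukocyte gene CD14 26 to 52 and 18 to 57. Their part in the differences between the genotypes was not tested. The highest-numbered library of each group (3, 6, 9 and 12) stood apart. Its pairs with the other libraries of the group had a chi-square per gene of 66.2 to 144, against 3.04 to 12.1 for the remaining pairs, so results that rest on these libraries are given with and without them.

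The scale matters for every serum comparison. ERCC-scaled counts are counts per 1000000 of the effective ERCC total of the library and follow the amount of a transcript per spike-in. On this scale the median log2 fold change from 10% to 0.1% serum over the 13236 tested genes was −0.97 in wild-type and −1.05 in ΔLEO1 cells, and that from wild-type to ΔLEO1 cells was 0.35 in 10% and 0.27 in 0.1% serum. In bulk RNA, fewer cells, less RNA per cell and less RNA input per spike-in cannot be told apart. The paper gives the spike-in dilution used for each sample but does not say that it was added per cell. Scaling by TMM on the genes themselves sets these medians near 0 (0.00 to 0.02), so its fold changes are relative to the other genes. Fold changes below are on the ERCC scale unless they are called relative.

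Promoters of HES1, NOTCH3 and JAG1 are shown because HES1 is a well-known direct target of RBPJ, and because NOTCH3 and JAG1 are the receptor and the ligand whose values differed most between groups. The sequences are RefSeq's for GRCh38.p14, run 5′ to 3′ on the strand of the gene and end just before the gene, at chr3:194135898-194136144 (plus strand), chr19:15200996-15201245 (minus strand) and chr20:10674000-10674249 (minus strand). Capitals mark the RBPJ core motif TGGGAA, read on both strands.
HES1: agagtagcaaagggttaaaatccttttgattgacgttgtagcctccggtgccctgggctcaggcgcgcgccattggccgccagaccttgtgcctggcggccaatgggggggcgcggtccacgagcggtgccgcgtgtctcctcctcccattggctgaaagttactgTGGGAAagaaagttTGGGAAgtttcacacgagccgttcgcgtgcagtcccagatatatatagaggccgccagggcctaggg
NOTCH3: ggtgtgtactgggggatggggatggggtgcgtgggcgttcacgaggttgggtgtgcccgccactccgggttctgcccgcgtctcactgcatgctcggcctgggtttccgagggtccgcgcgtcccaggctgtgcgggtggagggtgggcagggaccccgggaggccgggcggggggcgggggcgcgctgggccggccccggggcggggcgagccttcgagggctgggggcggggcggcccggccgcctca
JAG1: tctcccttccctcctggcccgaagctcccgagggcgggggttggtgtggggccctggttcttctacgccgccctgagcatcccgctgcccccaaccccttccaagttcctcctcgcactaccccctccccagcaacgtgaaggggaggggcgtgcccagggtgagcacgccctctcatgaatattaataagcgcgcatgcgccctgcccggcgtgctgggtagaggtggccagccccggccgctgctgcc
The HES1 promoter holds 2 copies of the motif, which span 84 to 79 and 70 to 65 bases before the RefSeq start, and the first is part of the longer form GTGGGAA. None lies in the windows of NOTCH3, JAG1, NOTCH1, NOTCH2 or JAG2. HEYL has 2 matches and HEY2 1, in windows that GENCODE places inside the gene and that are not printed. Of 35116 promoters in the table, 20.8% hold TGGGAA and 5.43% GTGGGAA in the 250 bases before the start, so a match by itself is common, and no match says only that these letters are not in this window. HEY1 had no entry and RBPJ had 5 starts, 1 of them with 2 matches.

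Per kilobase of merged exons, NOTCH2 was the most abundant receptor in 11 of the 12 libraries, the exception being library 6. That library had 12850 NOTCH2 and 7758 NOTCH3 counts, and their order depends on the gene length used. The merged exons hold 16807 and 9394 bases and the longest transcripts 11389 and 8666. With the longest transcript as length NOTCH2 comes first in library 6 too. In CPM per kilobase NOTCH2 had group means of 16.8 to 26.0 and reached 32.9, against library values of 3.44 to 18.6 for NOTCH3 and 2.61 to 5.13 for NOTCH1. In wild-type cells NOTCH2 made up 67.9% ± 4.71 (SD, n = 3) of the 3 receptors in 10% serum and 76.4% ± 7.73 in 0.1% serum. In ΔLEO1 cells its share was 53.7% ± 10.0 in 10% serum and 68.0% ± 1.07 in 0.1% serum. The share of NOTCH1 was 9.42% ± 1.11 in WT_10 and 9.36% ± 3.05 in WT_01, and 15.5% ± 2.77 in Leo1_10 and 17.9% ± 1.55 in Leo1_01. A share within a library does not depend on the scaling between libraries, and the NOTCH1 shares of the wild-type libraries in 0.1% serum (7.30% to 12.9%) all lay below those of the ΔLEO1 libraries (16.9% to 19.7%). From 10% to 0.1% serum the share of NOTCH3 went from 22.7% ± 5.64 to 14.3% ± 4.68 in wild-type and from 30.8% ± 12.8 to 14.1% ± 0.734 in ΔLEO1 cells. The shares are a description with no test. NOTCH2 counts are uncertain, since 22.2% of its 58-base stretches also occur in transcripts of other genes such as NBPF19 and NOTCH2NLA. The counts given to NOTCH2NLA, NOTCH2NLB and NOTCH2NLC were 0 to 26 per library.

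**Figure D1:**
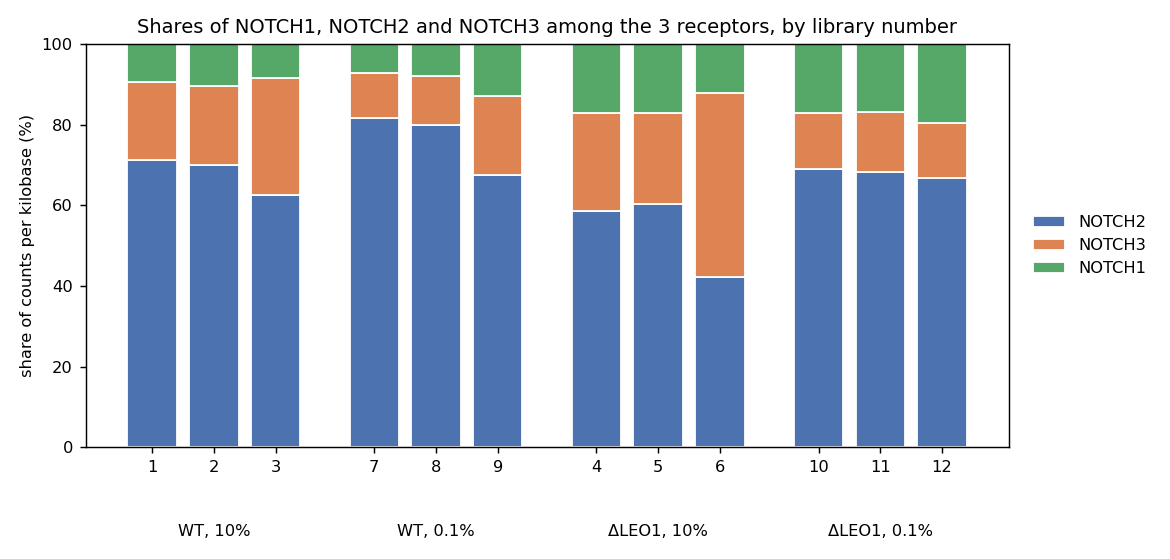
Stacked bars show the share (%) of NOTCH1, NOTCH2 and NOTCH3 in the summed counts per kilobase of merged exons of the 3 receptors. There is 1 bar for each of the 12 libraries, in order of group. NOTCH2 fills most of every bar but that of library 6, where it is at 42.2% and NOTCH3 at 45.6%, and the NOTCH1 part of each ΔLEO1 bar in 0.1% serum is larger than that of any wild-type bar.

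Both NOTCH1 and NOTCH3 were lower in 0.1% than in 10% serum in each genotype, and in ΔLEO1 cells NOTCH2 and JAG1 were lower too. No member passed the test in the other direction. In wild-type cells edgeR's quasi-likelihood test called 2 of the 7 tested members lower at a Benjamini-Hochberg adjusted p under 0.05, where it called 27.0% of all tested genes lower and 0.831% higher. In ΔLEO1 cells it called 4 of 7 lower, where it called 36.4% of all genes lower and 0.793% higher. Over the 7 members the median of the log2 fold changes was −0.94 in wild-type and −1.18 in ΔLEO1 cells, beside −0.97 and −1.05 for all genes. JAG2, HEY2 and HEYL did not exceed 1 CPM in at least 3 libraries and were not tested.

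NOTCH3, a receptor best known from vascular smooth muscle, fell most. On GRCh38 it lies on the minus strand of chromosome 19 from 15159038 to 15200981 (ENSG00000074181). In the wild-type libraries its ERCC-scaled counts were 9120, 7524 and 6812 (WT_10) and 1958, 2262 and 1800 (WT_01). In ΔLEO1 cells they were 10778, 7455 and 18413 in 10% serum and 1740, 982 and 2935 in 0.1% serum. The serum groups did not overlap in either genotype, and library 6, with 18413, was the highest of all. Across all tested genes 53.4% in wild-type and 50.9% in ΔLEO1 cells were lower in 0.1% serum without overlap, and 1.16% and 0.846% were higher. Such members were NOTCH1, NOTCH3, JAG1 and HEY1 in wild-type and NOTCH1, NOTCH2, NOTCH3 and JAG1 in ΔLEO1 cells, all lower. NOTCH3 changed by −1.96 ± 0.49 (SE, adjusted p = 0.00142, edgeR) on the log2 scale in wild-type and by −2.70 ± 0.51 (adjusted p = 9.71e-06) in ΔLEO1 cells, and both calls held with each of the 12 libraries left out in turn. NOTCH3 also fell relative to the other genes, with −1.01 on the log2 scale (adjusted p = 0.0342, edgeR) in wild-type, which held in 7 of 12 such fits, and −1.71 (adjusted p = 0.00313) in ΔLEO1 cells, which held in all 12.

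NOTCH1 (ENSG00000148400, minus strand of chromosome 9, 136494433 to 136545786) had ERCC-scaled counts of 4868, 4521 and 2144 in WT_10 and of 1428, 1635 and 1304 in WT_01. In ΔLEO1 cells they were 8355, 6208 and 5478 in 10% serum and 2375, 1229 and 4739 in 0.1% serum. The serum groups did not overlap in either genotype, although library 12 reached 4739. On the log2 scale NOTCH1 changed by −1.40 ± 0.49 (SE, adjusted p = 0.0249, edgeR) in wild-type and by −1.27 ± 0.49 (adjusted p = 0.0369) in ΔLEO1 cells. These calls held in 8 and in 6 of 12 fits with 1 library left out. NOTCH1 had relative log2 fold changes of −0.36 (adjusted p = 0.0531, edgeR) and −0.25 (adjusted p = 0.168), which did not pass.

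NOTCH2 (ENSG00000134250, minus strand of chromosome 1, 119911553 to 120069626) had 59609, 48743 and 26097 ERCC-scaled counts in WT_10 and 25888, 26718 and 11076 in WT_01. In ΔLEO1 cells it had 46189, 35699 and 30499 in 10% serum and 15435, 8041 and 26025 in 0.1% serum. The wild-type groups overlapped and the ΔLEO1 groups did not. On the log2 scale NOTCH2 had −1.08 ± 0.46 (SE, adjusted p = 0.0609, edgeR) in wild-type and −1.18 ± 0.47 (adjusted p = 0.0397) in ΔLEO1 cells, a call that held in 6 of 12 fits with 1 library left out. Both values are close to the medians of all genes, and the relative log2 fold changes were −0.11 and −0.12.

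**Figure D2:**
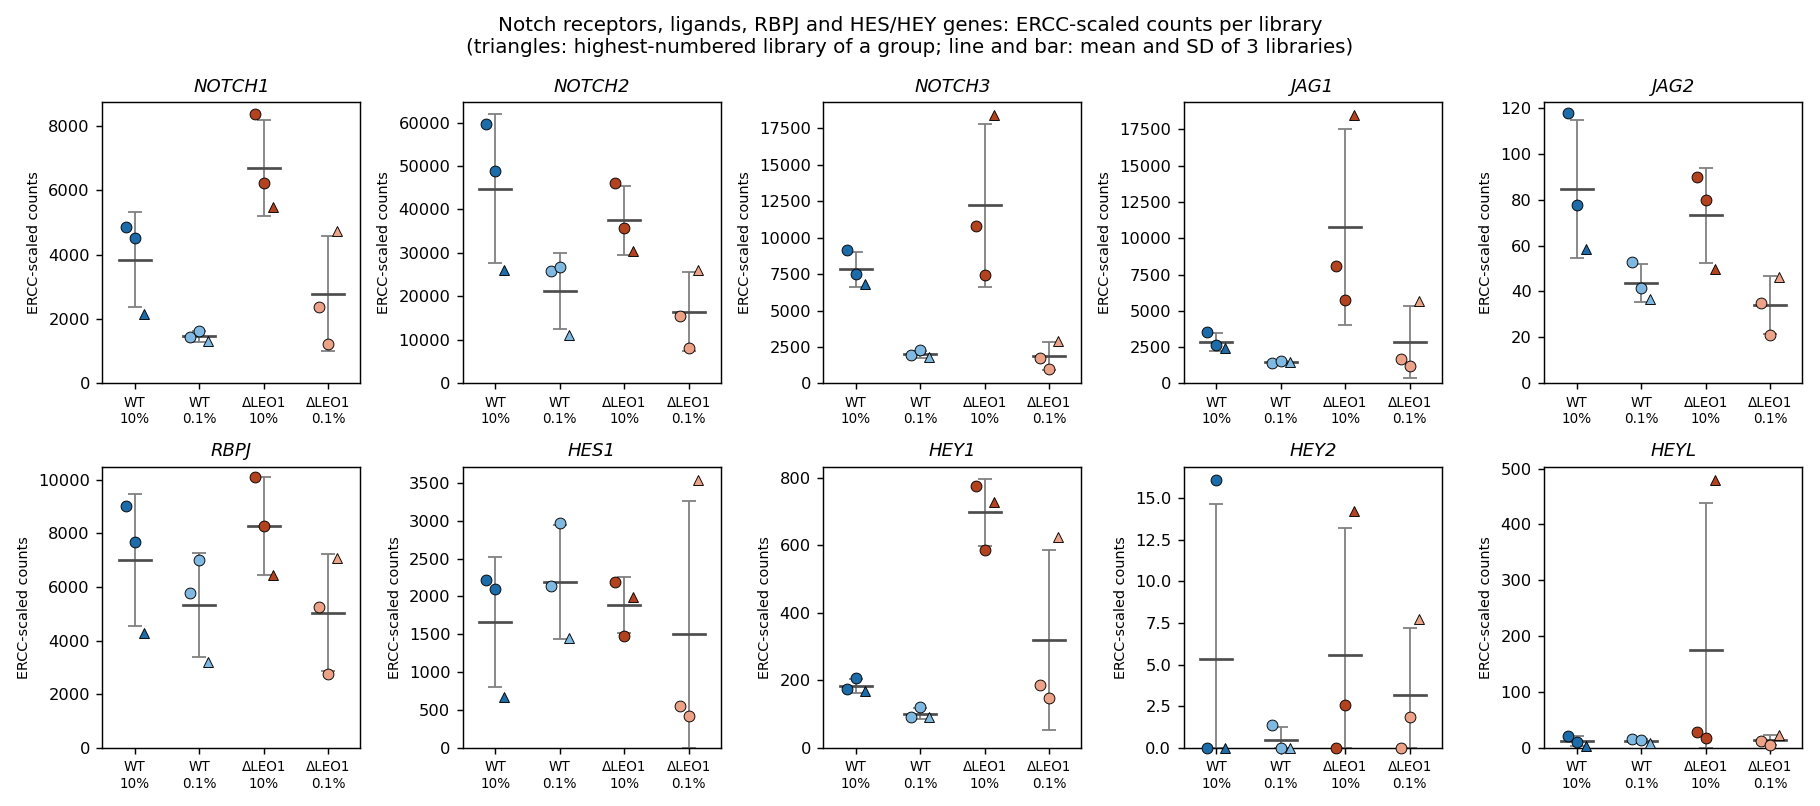
Each panel shows ERCC-scaled counts of 1 member (linear axis from 0) in the 12 libraries, grouped by genotype and serum, with the mean and SD of 3 libraries. Triangles are the highest-numbered library of a group. NOTCH3 is at 2935 or less in every 0.1% serum library and at 6812 or more in every 10% serum library, JAG1 and HEYL peak in library 6, and library 12 is the highest of its group for HES1, HEY1, JAG1 and the receptors.

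The ligand JAG1, a membrane protein that activates Notch receptors on adjacent cells, made up 94.9% to 99.6% of the JAG1 and JAG2 counts per kilobase. It was higher in ΔLEO1 than in wild-type cells in 10% serum. JAG1 (ENSG00000101384) lies on the minus strand of chromosome 20 from 10637684 to 10673999. In 10% serum JAG1 had ERCC-scaled counts of 3519, 2633 and 2402 in wild-type and of 8103, 5773 and 18463 in ΔLEO1 cells. In 0.1% serum they were 1423, 1538 and 1497 in wild-type and 1681, 1168 and 5687 in ΔLEO1 cells. In 10% serum the genotypes did not overlap, and libraries 6 and 12 were each far above the other libraries of their group. In 10% serum 23.7% of all tested genes were higher and 6.94% lower in ΔLEO1 cells without overlap, among them the members NOTCH1, JAG1 and HEY1, all higher.

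The test called 2 of 7 members higher in ΔLEO1 than in wild-type cells in 10% serum, JAG1 and HEY1, where it called 3.81% of all genes higher and 4.20% lower. In 0.1% serum it called 1 of 7 higher, HEY1, where it called 3.49% of all genes higher and 3.41% lower. The serum comparisons and the genotype comparisons share libraries, so their values are given side by side and are not independent. JAG1 was higher in ΔLEO1 cells in 10% serum by 1.92 ± 0.49 (SE) on the log2 scale (adjusted p = 0.00213, edgeR) and by 1.66 relative to the other genes (adjusted p = 0.0114), or by 0.77 relative to them without library 6 (adjusted p = 0.0349). Without library 6 the log2 fold change was 1.30 and the call was lost (adjusted p = 0.198, edgeR), and without libraries 3, 6, 9 and 12 together it was 1.17 (adjusted p = 0.0399). In 0.1% serum it was 0.94 (adjusted p = 0.397), and −0.06 without library 12. From 10% to 0.1% serum JAG1 fell by 1.92 ± 0.49 (adjusted p = 0.00270, edgeR) in ΔLEO1 cells. This call was lost without library 6 (−1.30, adjusted p = 0.0528) or library 10 (−1.66, adjusted p = 0.0930). Without library 12 the value was −2.92, where the median of all genes was −1.60. In wild-type cells JAG1 had −0.94 (adjusted p = 0.101), which turned to 0.05 relative to the other genes.

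JAG2, the other Jagged ligand, had 18 to 38 counts per library (0.473 to 1.13 CPM). With so few counts the exact Poisson 95% interval of its lowest CPM, 0.473 in library 6, runs from 0.293 to 0.723, and that of its highest, 1.13 in library 7, from 0.799 to 1.55. These intervals cover counting error only. Of its 58-base stretches, 6.40% also occur in AL512356.1, a gene on the same strand that shares 469 exon bases with it.

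RBPJ, the DNA-binding partner of the Notch intracellular domain, passed no test on the ERCC scale. It lies on the plus strand of chromosome 4 from 26163455 to 26435131 (ENSG00000168214). ERCC-scaled counts were 9037, 7688 and 4265 in WT_10 and 5786, 7012 and 3191 in WT_01. They were 10117, 8283 and 6442 in Leo1_10 and 5264, 2741 and 7098 in Leo1_01. All groups overlapped, with log2 fold changes of −0.39 (adjusted p = 0.456, edgeR) and −0.72 (adjusted p = 0.172) from 10% to 0.1% serum in wild-type and ΔLEO1 cells and of 0.24 and −0.08 between the genotypes in 10% and 0.1% serum. The serum values changed sign relative to the other genes, where RBPJ rose by 0.57 on the log2 scale in wild-type cells (adjusted p = 0.0128, edgeR) and had 0.41 in ΔLEO1 cells (adjusted p = 0.0600). In CPM RBPJ was at 71.7, 73.2 and 61.4 in WT_10 and at 124, 116 and 85.6 in WT_01, without overlap. It was at 64.0, 71.1 and 61.1 in Leo1_10 and at 99.9, 91.5 and 78.2 in Leo1_01, again without overlap. With TMM scaling the RBPJ groups did not overlap either. On that scale 24.7% of all genes in wild-type and 22.2% in ΔLEO1 cells were higher in 0.1% serum without overlap. Lower without overlap were 23.7% and 21.0%.

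**Figure D3:**
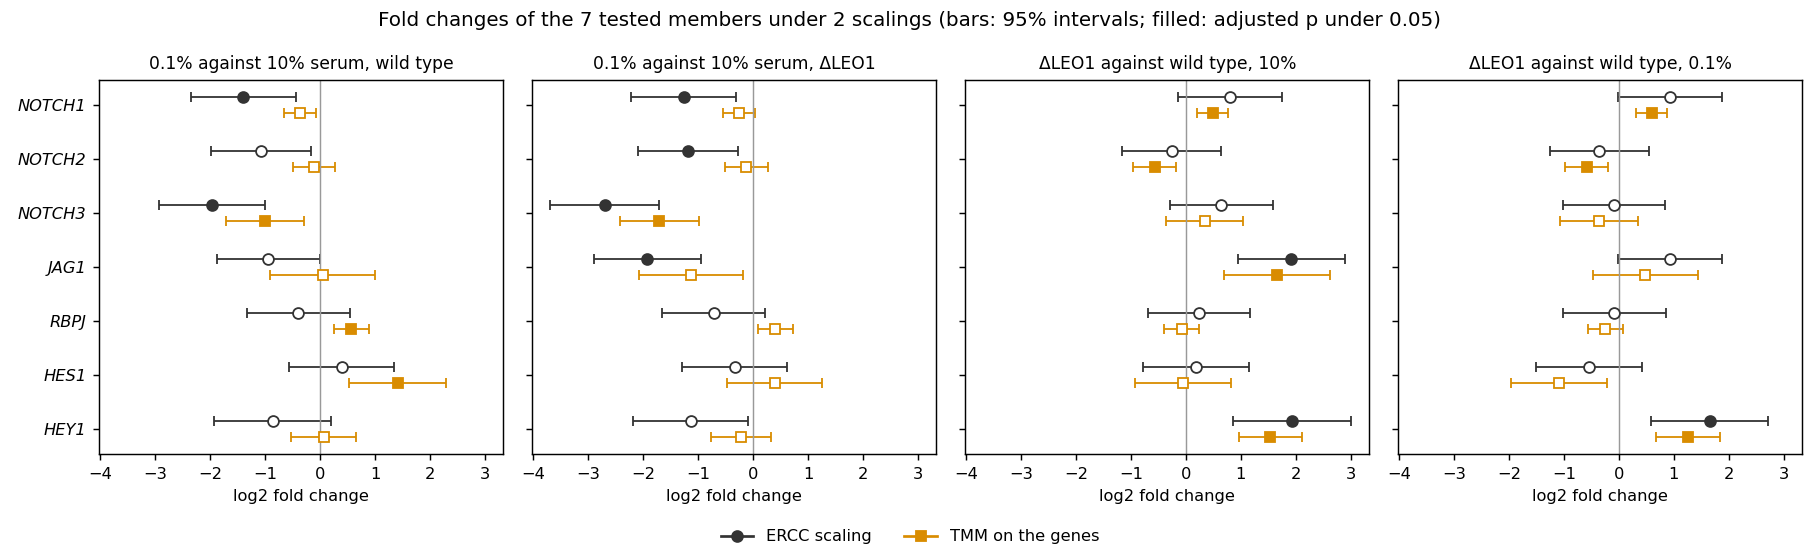
Points show log2 fold changes of the 7 tested members in the 4 comparisons with 95% intervals, under ERCC scaling (circles) and relative to the other genes (squares), filled where the adjusted p is under 0.05. NOTCH3 is filled under both scalings in both serum panels and HEY1 in both genotype panels, and the RBPJ values of both serum panels lie on opposite sides of 0.

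HES1 (ENSG00000114315, plus strand of chromosome 3, 194136145 to 194138732) did not fall detectably in low serum in wild-type cells, where the median gene fell. Its ERCC-scaled counts were 2220, 2100 and 673 in WT_10 and 2143, 2963 and 1455 in WT_01. The groups overlapped, with library 3 far below the others, and the log2 fold change was 0.40 with a 95% interval from −0.56 to 1.35 (adjusted p = 0.466, edgeR). HES1 rose relative to the other genes by 1.42 on the log2 scale (adjusted p = 0.0202, edgeR), a call that held in 9 of 12 fits with 1 library left out and was lost without library 3, 7 or 8. In CPM its WT_10 libraries lay between 9.69 and 20.0 and its WT_01 libraries were at 45.8, 49.1 and 39.0, without overlap. With TMM scaling 24.7% of all genes were higher and 23.7% lower in 0.1% serum without overlap, and the test called 15.5% higher and 16.1% lower in wild-type cells, beside HES1 and RBPJ higher and NOTCH3 lower among the 7 members. In ΔLEO1 cells these shares were 22.2% and 21.0% without overlap and 15.5% and 12.1% by the test, and NOTCH3 was the member called, lower.

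In ΔLEO1 cells the HES1 values in 0.1% serum were split by library 12. ERCC-scaled counts were 2194, 1479 and 1987 in Leo1_10 and 554, 413 and 3536 in Leo1_01. Libraries 10 and 11 were the lowest of all 12 libraries and library 12 was the highest. In CPM the same libraries were at 10.5, 13.8 and 39.0 in Leo1_01, against 13.9, 12.7 and 18.8 in Leo1_10. With all libraries HES1 had a change of −0.33 on the log2 scale from 10% to 0.1% serum (95% interval −1.29 to 0.63, adjusted p = 0.535, edgeR), and relative to the other genes it was 0.39 (adjusted p = 0.495). Without library 12 it was −1.96 (adjusted p = 1.06e-04, edgeR) on the ERCC scale, while without library 10 or library 11 it was 0.06 or 0.11. In the fit without library 12, 11529 of 13174 genes were called lower and 103 higher, with a median of −1.60. On the relative scale HES1 had −0.35 (adjusted p = 0.361, edgeR) without library 12.

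In ΔLEO1 against wild-type cells HES1 had 0.18 on the log2 scale (adjusted p = 0.864, edgeR) in 10% serum, which was −0.06 relative to the other genes, and −0.55 (adjusted p = 0.817) in 0.1% serum. Without library 12 the difference in 0.1% serum was −2.18 (adjusted p = 7.05e-05, edgeR), and without libraries 3, 6, 9 and 12 it was −2.40 (adjusted p = 4.35e-07). On the relative scale it was −1.09 with all libraries (adjusted p = 0.0567, edgeR) and −1.83 without library 12 (adjusted p = 8.74e-04). With TMM scaling HES1 was lower in ΔLEO1 cells without overlap in 0.1% serum, as were 21.7% of all genes, while 20.5% were higher. Library 12 (36.6 TMM-scaled CPM) was just below library 9 (38.1). For the difference of the serum responses between the genotypes the test called none of the 7 members, where it called 0.113% of all genes higher and 0.0604% lower. HES1 had −0.73 there (unadjusted p = 0.293, adjusted p = 1.00, edgeR). JAG1 had −0.98. Of the 7 members 0 had an unadjusted p under 0.05, and edgeR's likelihood ratio test and DESeq2 with ERCC size factors called 0. Without library 12 the HES1 value was −2.36 (adjusted p = 0.0161, edgeR), and without libraries 3, 6, 9 and 12 it was −2.16 (adjusted p = 0.0408). Library 12 had the highest ERCC-scaled count of its group for all 10 members, and it had 390027 ERCC counts against 665940 and 1090393 in libraries 10 and 11. The part of the spike-in in these values was not tested.

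Without libraries 3, 6, 9 and 12 the counts of called members were larger in the serum comparisons. In wild-type cells NOTCH1, NOTCH2, NOTCH3 and JAG1 were then lower in 0.1% serum, where 63.4% of 12911 genes were called lower and 0.999% higher. In ΔLEO1 cells all 7 were lower, where 92.0% of genes were called lower and 0.658% higher. Between the genotypes JAG1 and HEY1 were still called higher in 10% serum, where 4.90% were called higher and 5.86% lower, and in 0.1% serum NOTCH2 and HES1 were called lower and none higher, where 2.26% were called higher and 11.8% lower. HES1 was the member called lower for the difference of the responses, where the shares were 0.108% higher and 0.349% lower.

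**Figure D4:**
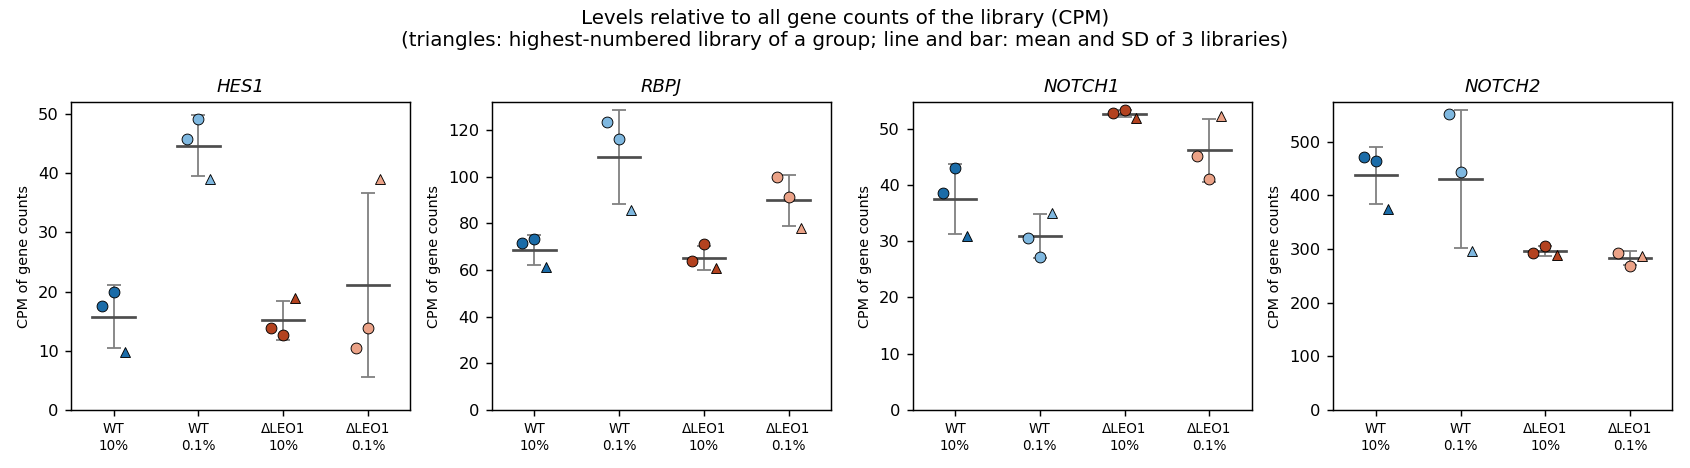
Panels show CPM of the gene counts (linear axis from 0) for HES1, RBPJ, NOTCH1 and NOTCH2 in the 12 libraries, with the mean and SD of 3 libraries. The WT_01 libraries of HES1 sit between 39.0 and 49.1 and the WT_10 libraries between 9.69 and 20.0, while Leo1_01 splits into 10.5 and 13.8 against 39.0 in library 12.

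HEY1, a repressor of the HES/HEY family encoded on chromosome 8 (ENSG00000164683), was higher in ΔLEO1 cells at both serum levels. Its ERCC-scaled counts were 173, 206 and 168 in WT_10 and 775, 586 and 729 in Leo1_10. In 0.1% serum they were 91.8, 120 and 91.3 in WT_01 and 185, 146 and 624 in Leo1_01. The genotypes did not overlap at either serum level, which in 0.1% serum held for 4.64% of all genes in this direction and 4.83% in the other, and library 12 stood far above libraries 10 and 11. The raw counts were low, 50 to 95 in wild-type and 122 to 307 in ΔLEO1 libraries. HEY1 was higher by 1.93 ± 0.55 (SE) on the log2 scale in 10% serum (adjusted p = 0.00764, edgeR), and by 1.65 ± 0.55 (adjusted p = 0.0389) in 0.1% serum. On the relative scale the differences were 1.54 (adjusted p = 7.38e-04, edgeR) and 1.26 (adjusted p = 0.00382), both called in each of the 12 fits with 1 library left out. On the ERCC scale the difference in 0.1% serum was 0.72 without library 12 (adjusted p = 0.467, edgeR) and was called in 4 of 12 such fits. In 10% serum it was 1.87 to 2.06 over those fits and was called in 10 of 12, the calls without library 1 or 2 being lost (highest adjusted p = 0.0529).

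Between 10% and 0.1% serum HEY1 changed on the log2 scale by −0.86 (adjusted p = 0.169, edgeR) in wild-type, where the groups did not overlap, and by −1.14 (adjusted p = 0.0669) in ΔLEO1 cells. On the relative scale these were 0.06 and −0.21, so the wild-type value changed its sign. Without library 12 the ΔLEO1 value was −2.07 (adjusted p = 1.39e-04, edgeR). In that fit 11529 of 13174 genes were called lower and 103 higher, and the median of all genes was −1.60.

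HEYL, a related repressor, was close to the detection limit in 11 of the 12 libraries, with 2 to 11 counts. Library 6, of ΔLEO1 cells in 10% serum, had 202 counts, or 4.55 CPM with an exact Poisson 95% interval from 3.94 to 5.22. The other Leo1_10 libraries had 7 counts each, which is 0.180 and 0.154 CPM. The same library held the highest values of JAG1 (175 CPM against 25.1 to 62.7 elsewhere), NOTCH3 (175 CPM against 32.4 to 98.1) and the smooth muscle gene MYH11 (8.82 CPM against 0.0299 to 1.03). Of the other mural markers, DES was at 0.315 CPM, RGS5 at 11.7 and KCNJ8 at 10.0 in library 6. None of these was highest in library 6. DES was at 0.332 CPM in library 3, RGS5 at 12.7 in library 11 and KCNJ8 at 18.9 in library 2. The 4 markers together summed to 30.9 CPM in library 6, against 16.2 and 17.9 in the other Leo1_10 libraries. The sum was 9.71 to 26.0 in the wild-type libraries and 12.9 to 14.6 in the Leo1_01 libraries. The part of these markers in the JAG1 and NOTCH3 values was not tested, and MYH11 was singled out after its values were seen. HEY2 had 0 to 6 counts, with 0 in 6 libraries. A count of 0 allows up to 0.0765 to 0.114 CPM in them (3 counts), and the exact Poisson 95% intervals used above end at 0.0941 to 0.141 CPM.

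NOTCH1 and NOTCH2 differed between the genotypes relative to the other genes, in opposite directions. In CPM NOTCH1 was at 38.6, 43.0 and 30.9 in WT_10 and at 52.8, 53.3 and 52.0 in Leo1_10. It was at 30.5, 27.1 and 35.0 in WT_01 and at 45.1, 41.0 and 52.2 in Leo1_01. The genotypes did not overlap at either serum level, in CPM or with TMM scaling. With TMM scaling this held for 29.2% of all genes higher and 30.1% lower in 10% serum and for 20.5% and 21.7% in 0.1% serum. The relative log2 fold change was 0.48 (adjusted p = 0.0119, edgeR) in 10% and 0.59 (adjusted p = 0.00504) in 0.1% serum, called in each of 12 fits with 1 library left out. On the ERCC scale the values were 0.80 (adjusted p = 0.453) and 0.93 (adjusted p = 0.403), which did not pass.

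For NOTCH2 the CPM were 473, 464 and 376 in WT_10 and 292, 306 and 289 in Leo1_10, and 553, 443 and 297 in WT_01 and 293, 268 and 287 in Leo1_01. In 10% serum every wild-type library was above every ΔLEO1 library, and in 0.1% serum library 9 (297) was just above library 10 (293), and with TMM scaling the groups overlapped. NOTCH2 was relatively lower in ΔLEO1 cells by a log2 fold change of −0.57 (adjusted p = 0.0242, edgeR) in 10% and −0.59 (adjusted p = 0.0253) in 0.1% serum, called in 7 and in 8 of 12 fits with 1 library left out. On the ERCC scale it had −0.26 and −0.36 (adjusted p = 0.794 and 0.863). NOTCH3 had 0.64 (adjusted p = 0.556, edgeR) in 10% and −0.09 (adjusted p = 0.957) in 0.1% serum on the ERCC scale. With TMM scaling NOTCH3 was lower in ΔLEO1 cells without overlap in 0.1% serum, as were 21.7% of all genes. It was called there in 0 of 12 fits with 1 library left out. On the relative scale 17.9% of all genes were called higher and 21.4% lower in ΔLEO1 cells in 10% serum, and 15.1% and 17.3% in 0.1% serum, so that calls of this kind were common.

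Over the 12 libraries the genes whose log2 CPM was most like that of HES1 were LRRC37B (Pearson r = 0.95), PYGO2 (0.94) and USP21 (0.94). Those most like NOTCH3 were HIBADH (0.97), TP53INP2 (0.96) and SH3BGRL2 (0.96). Among the members JAG1 and HEY1 had r = 0.79, NOTCH1 and HEY1 0.74 and NOTCH2 and HEY1 −0.83, while HES1 and HEY1 had −0.29. These are descriptions over 12 libraries that share groups.

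Other genes of the pathway were taken from a list of 70 by role, of which 56 were tested. In wild-type cells 1 of 56 was called higher and 12 lower in 0.1% serum (0.831% and 27.0% of all genes), the median being −0.85 on the log2 scale (−0.97 for all genes). In ΔLEO1 cells 3 were called higher and 15 lower (0.793% and 36.4% of all genes), with a median of −0.88 (−1.05 for all genes). Between the genotypes 0 were higher and 3 lower at each serum level, where 3.81% of all genes were higher and 4.20% lower in 10% serum and 3.49% and 3.41% in 0.1% serum, and the medians were 0.26 and 0.21 (0.35 and 0.27 for all genes). DLK1 and HES5 had no counts in any library, and the receptor NOTCH4 had 3 to 39.

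The members of the list that fell most in wild-type cells were DTX4, MFAP5 and DLL4. DTX4, a Deltex ubiquitin ligase of the Notch pathway, fell by 2.78 on the log2 scale (adjusted p = 3.06e-05, edgeR). MFAP5 encodes a microfibril protein that can bind Notch ligands and NOTCH1, and fell by 2.75 (adjusted p = 1.12e-05). The ligand DLL4 had −2.20 ± 0.55 (SE, adjusted p = 0.00122) in wild-type and −2.63 ± 0.55 (adjusted p = 1.14e-04) in ΔLEO1 cells. Both DLL4 calls were lost relative to the other genes, with −1.63 (adjusted p = 0.0879) and −1.26 (adjusted p = 0.179). Library 3 had 731 DLL4 counts against 110 and 138 in the other WT_10 libraries, and without libraries 3, 6, 9 and 12 the wild-type value was −0.98 (adjusted p = 0.0356). In ΔLEO1 cells CDK8, a kinase of the Mediator complex that phosphorylates the Notch intracellular domain, fell by 1.90 (adjusted p = 0.00539) and the corepressor TLE4 by 1.72 (adjusted p = 0.00640). TLE4 had 19410 ERCC-scaled counts in library 12 against 3957 and 2269 in libraries 10 and 11. Without libraries 3, 6, 9 and 12 its ΔLEO1 value was −3.33 (adjusted p = 2.11e-11, edgeR). Both genes were also lower without overlap in wild-type cells, as were 53.4% of all tested genes. There TLE4 went from 30188, 24519 and 14071 ERCC-scaled counts in 10% serum to 4639, 5867 and 5448 in 0.1% serum. CDK8 went from 2067, 1483 and 1136 to 565, 703 and 223.

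The corepressor TLE3 rose in low serum in both genotypes, by 1.59 (adjusted p = 0.0149, edgeR) in wild-type and 1.70 (adjusted p = 0.0124) in ΔLEO1 cells on the log2 scale. LFNG, a Fringe glycosyltransferase that modifies Notch receptors, had ERCC-scaled counts of 294, 195 and 164 in Leo1_10 and of 651, 354 and 1740 in Leo1_01. The groups did not overlap, library 12 was the highest, and LFNG rose by 2.07 (adjusted p = 0.00347, edgeR). Without libraries 3, 6, 9 and 12 the value was 1.05 (adjusted p = 0.0141). LFNG was also higher without overlap in wild-type cells, with 408, 322 and 147 in WT_10 and 463, 621 and 649 in WT_01, but was not called. Higher without overlap were 0.846% of all genes in ΔLEO1 and 1.16% in wild-type cells. TLE2, another corepressor, was also called higher in ΔLEO1 cells (adjusted p = 0.0312, edgeR), from 1, 1 and 3 counts in Leo1_10 to 13, 10 and 18 in Leo1_01. At so few counts no fold change is given. In wild-type cells TLE2 was at 0.714 to 1.15 CPM in WT_10 and at 2.48 to 3.14 in WT_01, while its ERCC-scaled counts overlapped.

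The list members called between the genotypes on the ERCC scale were the same 3 genes at both serum levels. These were MFAP5, DTX4 and TLE2, all lower in ΔLEO1 cells. More of the list were called relative to the other genes, in both directions, as counted in the section on processing below. MFAP5 had 1345 to 1928 counts in WT_10 and 59 to 87 in Leo1_10, which is −4.40 ± 0.57 on the log2 scale (SE, adjusted p = 1.79e-12, edgeR), and had −2.89 ± 0.54 (adjusted p = 4.12e-06) in 0.1% serum, or −3.51 there without libraries 3, 6, 9 and 12. DTX4 had 446 to 628 counts in WT_10 and 8 to 16 in Leo1_10, which is −5.12 ± 0.64 (adjusted p = 2.09e-13), and had −1.90 ± 0.56 (adjusted p = 0.0130) in 0.1% serum, or −3.04 there without libraries 3, 6, 9 and 12 (adjusted p = 6.04e-09). TLE2 had 28 to 42 counts in WT_10 and 65 to 105 in WT_01, above every ΔLEO1 library. These 3 genes were also called lower relative to the other genes at both serum levels.

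**Figure D5:**
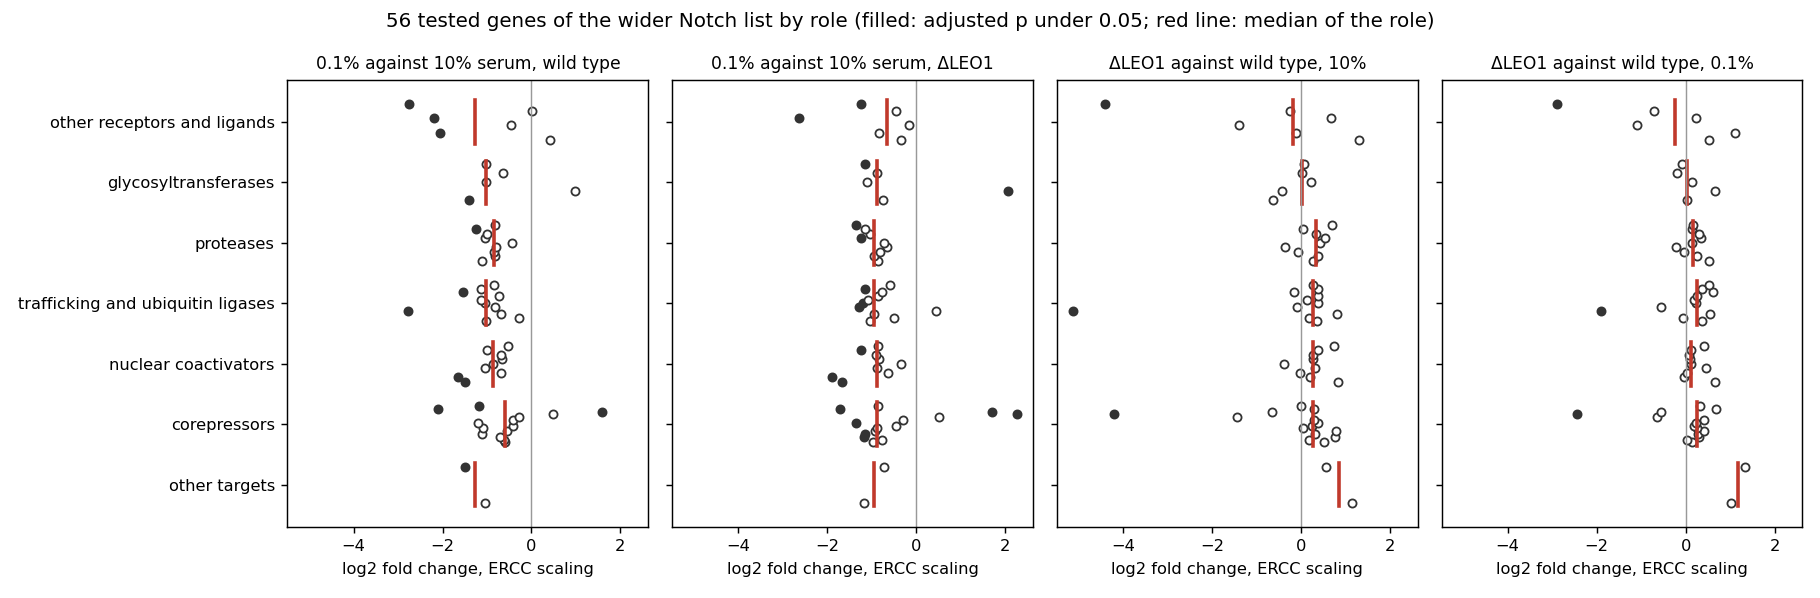
Points show the log2 fold change (ERCC scaling) of the 56 tested genes of the wider list in the 4 comparisons, 1 row per role, filled where the adjusted p is under 0.05, with the median of each role as a red line. Most serum points lie left of 0 near −0.9, and 3 filled points stand apart on the left of each genotype panel (MFAP5, DTX4 and TLE2).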

How the data were processed

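Poly(A) RNA-seq libraries of BJ-5ta cells (12, in 4 groups of 3) were analysed from a table of read counts per gene. Per the labels and the paper, the authors made these counts with STAR (2.7.10a in the submitters' notes) on GRCh38 and featureCounts 1.5.1; the annotation release and the strand setting are not given in the sources used here. Gene positions and lengths came from GENCODE release 29. Genes above 1 CPM in at least 3 libraries (13236 of 60671) were fitted together over 4 groups by edgeR's quasi-likelihood test (edgeR 4.0.16, R 4.3.3), with the ERCC total times its TMM factor as library size and Benjamini-Hochberg adjustment over all tested genes (threshold 0.05). TMM on the genes, DESeq2 1.42.0, other filters and left-out libraries were alternatives. On simulated data for the wild-type serum comparison, 200 of 200 changed genes were recovered among 12879, with 7 false calls among the other 12679. The simulation used large set changes in genes above the median level, the same spread for every gene and no library that stood apart. It therefore does not measure the accuracy of the calls in these data. The members and lists were chosen with earlier results of these data known. All members were named, and from the wider list the called genes of largest change, up to 3 per direction and comparison.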

Additional observations from a re-analysis of the deposited data

Results flagged for a closer look

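The DTX4 response to low serum differed between the genotypes by 3.22 ± 0.80 (SE) on the log2 scale (adjusted p = 0.0390, edgeR's quasi-likelihood test of the interaction), and was picked out because this test of the difference itself passed. DTX4 had 446 to 628 counts in WT_10 and 111 to 163 in WT_01, against 8 to 16 in Leo1_10 and 21 to 42 in Leo1_01. It fell in wild-type cells by 2.78, and had 0.44 in ΔLEO1 cells (adjusted p = 0.498). The call held in 3 of 12 fits with 1 library left out (2.37 to 3.69), and was lost without libraries 3, 6, 9 and 12 together, where it was 1.87 (adjusted p = 0.334). It passed relative to the other genes, with 3.31 (adjusted p = 0.00232). No group here has the 4 samples that a check for single far samples needs.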

How the results depend on the processing

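The labels pair no libraries between groups, since the library numbers 1 to 12 are not shared, and no paired or blocked fit was made. Of 47 values, 46 kept their direction and call under edgeR's likelihood ratio test and 46 under DESeq2 with ERCC size factors, with 1 newly called under each, and all 47 under filterByExpr. The cause of each change below was not tested. With TMM or DESeq2 size factors on the genes, members called higher and lower were 2 and 1 (TMM) or 2 and 2 (DESeq2) in the wild-type serum comparison, 0 and 1 in the ΔLEO1 serum comparison, 3 and 1 between genotypes in 10% serum, and 2 and 1 in 0.1% serum. Wider-list calls were then 14 higher and 8 lower in wild-type, 16 or 15 higher and 3 lower in ΔLEO1 cells, 7 higher and 15 or 14 lower between genotypes in 10% serum, 5 higher and 11 lower in 0.1% serum, and 2 higher for the interaction. Over all genes TMM gave 15.5% higher and 16.1% lower, 15.5% and 12.1%, 17.9% and 21.4%, 15.1% and 17.3%, and 1.55% and 0.453% in these 5 tests. With no filter, members called lower were 1 in wild-type cells and 1 for the interaction (HEYL, which also passed in ΔLEO1 serum and in 10% serum between genotypes and has 202 counts in library 6 against 2 to 11 elsewhere), members called higher in 0.1% serum between genotypes 0 (HEY1, adjusted p = 0.0559), and wider-list calls 4 lower in ΔLEO1 cells, 1 higher in 10% serum and 0 for the interaction. DESeq2 with ERCC size factors called 21 of the wider list lower in wild-type cells, and 2 higher and 5 lower between genotypes in 10% serum, where filterByExpr gave 2 higher. Of 13236 genes, DESeq2 called 5334 lower in wild-type cells, and 583 higher and 594 lower between genotypes in 10% serum. With filterByExpr 783 of 15722 genes were higher there. With no filter, of 32285 genes, 2493 were called lower in wild-type and 2530 in ΔLEO1 cells. Between genotypes 932 were then higher in 10% and 733 in 0.1% serum. For the interaction 15 were higher and 8 lower. Without libraries 3, 6, 9 and 12, members called lower were 4 and 7 in the serum comparisons, 2 between genotypes in 0.1% serum, with 0 higher, and 1 for the interaction, and wider-list calls 32 and 49 lower in the serum comparisons, 2 higher and 5 lower in 10% serum, 7 lower in 0.1% serum and 0 for the interaction. The shares of all genes called without these libraries are given above.

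With each library left out in turn, members called lower ranged from 1 to 4 in wild-type and 1 to 7 in ΔLEO1 cells, members called higher between genotypes from 1 to 2 in 10% and from 0 to 3 in 0.1% serum, with 0 to 1 lower, and from 0 to 1 lower for the interaction. Wider-list calls ranged from 0 to 2 higher and 4 to 31 lower in wild-type, 1 to 3 higher and 1 to 46 lower in ΔLEO1 cells, 0 to 2 higher and 3 to 5 lower in 10% serum, 0 to 2 higher in 0.1% serum and 0 to 1 higher for the interaction. In the same fits the genes called lower, of 13139 to 13196, ranged from 743 to 8102 in wild-type and from 406 to 11529 in ΔLEO1 cells. Those called higher ranged from 51 to 182 and from 51 to 119. Between genotypes 294 to 940 genes were called higher and 374 to 781 lower in 10% serum. In 0.1% serum these were 268 to 1117 and 281 to 955, and for the interaction 8 to 44 and 3 to 56. The counts over all genes thus varied as well.

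Signs turned under TMM and DESeq2 size factors on the genes for JAG1 (0.0502 and 0.0507), HEY1 (0.0642 and 0.0646) and RBPJ (0.57 and 0.58) in the wild-type serum comparison, for HES1 (0.39 and 0.39) and RBPJ (0.41 and 0.40) in the ΔLEO1 serum comparison, and for HES1 (−0.0624 and −0.0471) and RBPJ (−0.0808 and −0.0685) between genotypes in 10% serum. In the ΔLEO1 serum comparison HES1 ranged from −1.96 (without library 12) to 0.11 (without library 11) over the fits with 1 library left out, and relative to the other genes from −0.35 (without library 12) to 0.70, with −0.15 without libraries 3, 6, 9 and 12. Between genotypes in 10% serum NOTCH2 ranged from −0.53 to 0.0205 (without library 1), HES1 from −0.20 (without library 3) to 0.46, with −0.24 without libraries 3, 6, 9 and 12, and RBPJ from −0.0143 (without library 3) to 0.49. In 0.1% serum NOTCH3 ranged from −0.56 to 0.22 (without library 11), RBPJ from −0.41 to 0.21 (without library 11), and JAG1 from −0.0617 (without library 12) to 1.31, with −0.0564 without libraries 3, 6, 9 and 12. With the longest transcript as gene length, NOTCH1 shares were 7.76% in WT_10 and 14.7% in Leo1_01, NOTCH2 74.0% in both and NOTCH3 11.3% in Leo1_01. JAG1 was then at 97.1% and JAG2 at 2.87% and 2.92% in the wild-type groups. In Leo1_10 the shares of NOTCH1, NOTCH2 and NOTCH3 were 13.2%, 60.8% and 26.0% by this length. The relative values with libraries left out were added after seeing the data. HEY2, HEYL and JAG2 were below the filter, and were tested with no filter or, for JAG2, also with filterByExpr.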

Other observations

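Of all tested genes, the one whose log2 CPM was most like that of JAG1 over the 12 libraries was SLX4IP (Pearson r = 0.96), which encodes a protein that binds the SLX4 nuclease scaffold. It lies next to JAG1 on chromosome 20, on the plus strand from 10435303 to 10636829, and its end is 854 bases from the end of JAG1. ERCC-scaled counts of SLX4IP were 463, 386 and 214 in WT_10, 942, 699 and 1901 in Leo1_10, 156, 202 and 157 in WT_01, and 218, 113 and 671 in Leo1_01. As for JAG1, libraries 6 and 12 were the highest of their groups. SLX4IP was described after its values were seen, and the strand setting of the counting is not given in the sources used here.

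PTPRC, a leukocyte surface gene, was at 1.37 to 7.10 CPM in the ΔLEO1 libraries and at 0.204 to 0.627 CPM in the wild-type libraries, while CD14 was at 0.510 to 1.32 and 0.740 to 1.43 CPM and CD3E and MS4A1 were at or near 0 in both. TEK, an endothelial receptor gene, was at 0 to 0.110 CPM in the ΔLEO1 and at 1.61 to 4.78 CPM in the wild-type libraries. Their part in the differences between the genotypes was not tested. The 7 markers of cycling cells summed to 161 to 601 CPM in WT_10, 204 to 369 in WT_01, 395 to 754 in Leo1_10 and 325 to 515 in Leo1_01, with medians of 598, 230, 677 and 341. The 161 belonged to library 3, the 395 to library 6, the 369 to library 9 and the 515 to library 12. The part of these markers in the Notch values was not tested.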
